A study of Gossypium hirsutum with 45 samples.

Results

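Abscisic acid synthesis and breakdown were followed through 3 genes of upland cotton (Gossypium hirsutum), out of 75376 in the deposited table. Gohir.A13G152200 (chromosome A13, 98795895 to 98798145, plus strand) is described only by its domain, PF03055, the domain of carotenoid cleavage dioxygenases. Gohir.A03G189000 (chromosome A03, 111222659 to 111227213, plus strand) is described as abscisic acid 8'-hydroxylase 4. Gohir.D11G199300 (chromosome D11, 25104424 to 25108922, minus strand) is described as zeaxanthin epoxidase. The genes were picked by name with their responses in these libraries already known, so their levels are given as a description with no test. Positions are those of the deposited table, whose genome build no source used here names.

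Leaf, root and stem of seedlings of the cultivar Hengmian HD008, grown in sterilized sand to the three-leaf stage, were sampled before treatment (0 min, the control) and after 10, 30, 60 and 180 min in 10% PEG 6000, a polymer that draws water out of plant tissue and imitates drought. Each of the 15 groups had 3 libraries, 45 in all, with 16373617 to 21774520 reads counted in genes. All plants were of this 1 cultivar, and no untreated plants of the later times were analysed here, so hours of the day and handling cannot be told apart from PEG. Nothing in the labels ties a replicate to a plant or a pool of plants. The p-values therefore speak of library-to-library spread alone, part of which may be technical.

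Abscisic acid is the plant hormone of water deficit. It is made from carotenoids: zeaxanthin epoxidase converts zeaxanthin to violaxanthin in plastids, 9-cis-epoxycarotenoid dioxygenases of the carotenoid cleavage family cut the derived epoxycarotenoids to xanthoxin, and a dehydrogenase and an aldehyde oxidase turn xanthoxin into the hormone. The 8'-hydroxylases, cytochromes P450 of the CYP707A family, start its breakdown. The cleavage step is known as the rate-limiting one in leaves under drought, and the dioxygenase family also holds enzymes that cut carotenoids for other products, so the domain alone does not say which reaction Gohir.A13G152200 carries out.

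The tissue labels were checked against marker lists. The summed level of 65 genes described as Rubisco small chain or chlorophyll-binding proteins was 19749 to 21829 FPKM in leaf at 0 min, 2542 to 3353 in stem and 13.3 to 29.6 in root. FPKM is fragments per kilobase of gene, here scaled per library to the median gene and not to total reads. The summed level of 219 nitrate, phosphate and ammonium transporter genes, a broad list also used outside roots, was 2743 to 4038 FPKM in root, against 1421 to 1611 in leaf and 1343 to 1449 in stem. Of these lists, 0 green-tissue genes and 7 transporter genes were at 0 in all libraries. Each of the 45 libraries correlated best with another of its own tissue, and 36 of them with another of their own group. In bulk tissue, fewer cells of a type and less RNA per cell cannot be told apart.

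Transcripts of the dioxygenase-domain gene Gohir.A13G152200 were scarce everywhere until 180 min, when leaf held far more than any other group. Leaf libraries at 180 min had 113, 126 and 92.8 FPKM, against 0.460, 0.336 and 0.172 FPKM at 0 min. The 3 treated libraries all lay above the 3 untreated ones, a property shared by 19.3% of the 46265 genes kept in leaf. The mean was 111 ± 16.9 FPKM at 180 min and 0.323 ± 0.145 FPKM at 0 min (SD, n = 3 each), a ratio of 343 resting on 14361 and 41 reads, or a change of 6.40 in log2(FPKM + 1). Leaf means at 10, 30 and 60 min were 0.122 ± 0.0746, 0.201 ± 0.162 and 0.774 ± 0.594 FPKM, each overlapping 0 min, so the change in leaf lay between the last 2 samplings.

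Stem showed the next highest level of Gohir.A13G152200 and root a low one. Stem libraries at 180 min had 6.78, 4.05 and 7.49 FPKM, against 2.73, 3.87 and 0.794 FPKM at 0 min. They did not overlap, which held for 20.2% of stem genes in this direction, but the log2 change of 1.12 was 0.70 without 0 min replicate 3, the lowest library. Root libraries at 180 min had 1.22, 2.12 and 1.21 FPKM, against 0.753, 0.371 and 0.527 FPKM at 0 min, a log2 change of 0.69. Root libraries at 180 min, and those at 10 min (1.08 ± 0.242 FPKM), all lay above 0 min, as did 29.9% and 17.8% of root genes. In the order of the 15 group means, leaf at 180 min stood above stem at 180 min and stem at 180 min above stem at 0 min with no shared range. From stem at 0 min downward every group overlapped its neighbour.

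**Figure D1:**
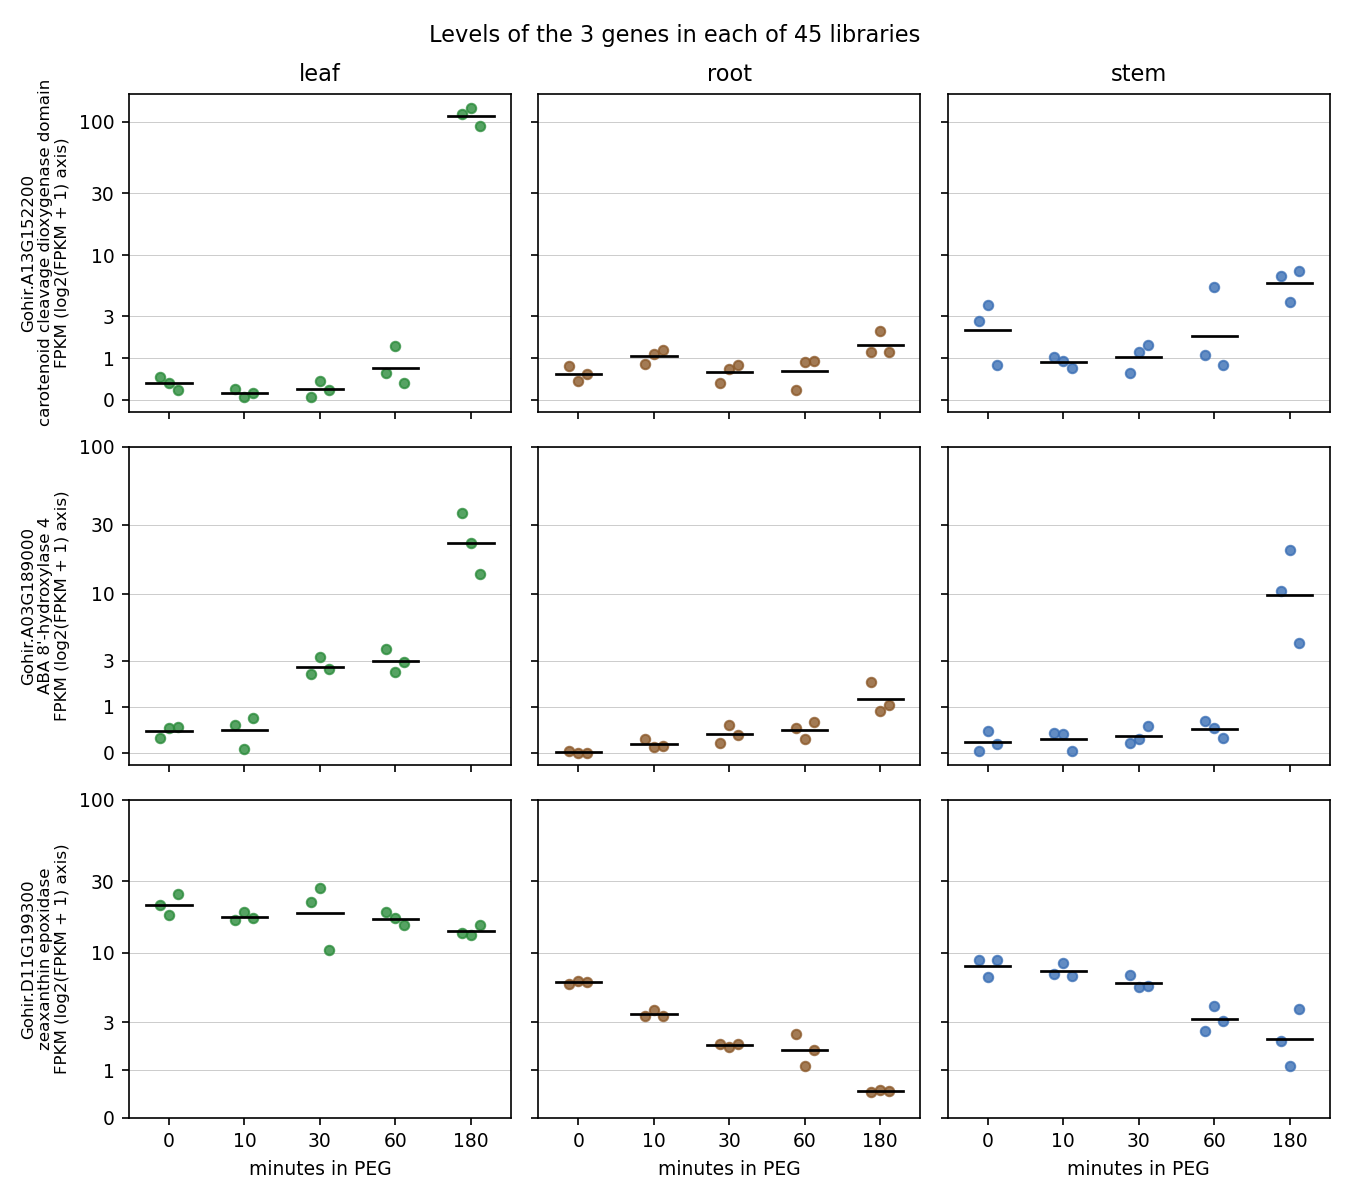
Level of each of the 3 genes (rows) in leaf, root and stem (columns) at 0 to 180 min in PEG, in FPKM on a log2(FPKM + 1) axis; points are single libraries and black lines the means on that axis. Gohir.A13G152200 reaches 92.8 to 126 FPKM in leaf at 180 min, Gohir.A03G189000 climbs in leaf and stem, and Gohir.D11G199300 declines most in root.

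The breakdown gene Gohir.A03G189000 was higher than at 0 min in leaf from 30 min on. Its leaf means were 0.393 ± 0.122, 0.427 ± 0.327, 2.69 ± 0.50, 3.03 ± 0.723 and 24.2 ± 11.1 FPKM at 0, 10, 30, 60 and 180 min. The leaf libraries at 180 min had 35.9, 22.7 and 13.9 FPKM, against 0.254, 0.442 and 0.483 FPKM at 0 min, a log2 change of 4.08 and a ratio of 61.5. The groups at 30, 60 and 180 min all lay above 0 min without overlap, as 17.7%, 12.2% and 19.3% of leaf genes did. At 30 and 60 min the 2 groups overlapped each other.

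In stem the same gene was low to 60 min, with means of 0.186 to 0.440 FPKM that overlapped 0 min. Stem libraries at 180 min then had 10.4, 20.2 and 4.27 FPKM, against 0.0289, 0.389 and 0.139 FPKM at 0 min, a log2 change of 3.20 and a ratio of 62.5. The lowest treated library thus lay above the highest untreated one, as for 20.2% of stem genes, although the treated libraries differed widely among themselves. Root at 0 min held 1 read of Gohir.A03G189000 in its 3 libraries together, so no ratio is given there. Root reads summed to 13, 27, 37 and 85 at 10, 30, 60 and 180 min, and root at 180 min had 1.92, 0.882 and 1.04 FPKM. Every root group after 0 min lay above 0 min, for which a few reads per library were enough. The gene was itself too low to be kept in root. Of the kept root genes, 17.8%, 23.4%, 27.5% and 29.9% lay above 0 min at 10, 30, 60 and 180 min. Among all 15 groups, leaf and stem at 180 min overlapped at the top, leaf at 60 and 30 min followed, then root at 180 min, and root at 0 min was the lowest.

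The zeaxanthin epoxidase gene Gohir.D11G199300 ran the other way: it was highest in leaf and lower at 180 min in each tissue, most of all in root. Root libraries had 5.98, 6.29 and 6.17 FPKM at 0 min, 3.40, 3.81 and 3.38 at 10 min, 1.91, 1.80 and 1.92 at 30 min, 2.39, 1.13 and 1.67 at 60 min, and 0.445, 0.501 and 0.469 at 180 min. Each treated root group lay wholly below 0 min, as did 18.9%, 24.2%, 27.5% and 28.9% of root genes at the 4 times. The log2 changes in root were -0.66, -1.31, -1.41 and -2.28, and the mean at 180 min was 0.472 ± 0.0282 FPKM, against 6.15 ± 0.155 FPKM at 0 min, a level 13-fold lower. The green-tissue sum in root was 9.90 to 11.9 FPKM at 30 min and 45 to 69.1 FPKM at 180 min, against 13.3 to 29.6 FPKM at 0 min. That sum was thus below 0 min at 30 min and above it at 180 min, and its part in the epoxidase result was not tested.

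Stem means of Gohir.D11G199300 were 8.15 ± 1.21, 7.44 ± 0.885, 6.12 ± 0.666, 3.22 ± 0.800 and 2.35 ± 1.39 FPKM at 0, 10, 30, 60 and 180 min. Stem at 10 and 30 min overlapped 0 min. Stem at 60 and 180 min lay below 0 min with log2 changes of -1.13 and -1.52, while 23.1% and 18.4% of stem genes did the same. The green-tissue sum in stem was 1302 to 1336 FPKM at 60 min and 1428 to 2547 FPKM at 180 min, against 2542 to 3353 FPKM at 0 min, so it was also below 0 min at 60 min and overlapped it at 180 min; its part in the epoxidase result was not tested. Leaf means ran 21.2 ± 3.27, 17.6 ± 1.2, 19.8 ± 8.46, 17.1 ± 1.70 and 14.1 ± 1.10 FPKM, with 10, 30 and 60 min each overlapping 0 min. Leaf at 180 min, with 13.6, 13.3 and 15.3 FPKM, lay below the 21.0, 18.1 and 24.6 FPKM of 0 min (log2 change -0.55), as did 21.5% of leaf genes. The green-tissue sum in leaf was 11608 to 14189 FPKM at 180 min, against 19749 to 21829 FPKM at 0 min, and its part was likewise not tested. The 5 leaf groups held the top of the order of means, and all lay above every stem and root mean.

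Upland cotton carries an A and a D subgenome, so most genes have a copy on the matching chromosome of the other one. A copy was assigned to each of the 3 genes from its description or domain and its chromosome, with no comparison of sequences. The copies were tested, although they too were taken with earlier results of these libraries known. No source used here says how reads that match both copies were counted, so the split between near-identical copies is uncertain. Tests were made with limma on log2(FPKM + 1), with Benjamini-Hochberg adjustment over all genes kept in a tissue.

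The dioxygenase copy Gohir.D13G156600 (chromosome D13, 53557663 to 53559432) rose in leaf at 180 min. Its leaf libraries had 75.8, 96.5 and 102 FPKM at 180 min, against 0.234, 0.0915 and 0.0626 FPKM at 0 min (log2 change 6.34, SE 0.18, adjusted p = 2.99e-10, limma). No library of either group came near the other. The gene passed the filter on low values only through the 180 min libraries, as Gohir.D08G253900 did in leaf and stem and Gohir.D02G209900 in stem, so a difference was built into its being tested and its call is given as a value, not as support for Gohir.A13G152200. With no filter its adjusted p was 7.15e-10 (limma). Its stem mean was 4.55 ± 4.26 FPKM at 180 min and 1.69 ± 1.10 FPKM at 0 min, which did not pass (adjusted p = 0.183, limma), and no root contrast passed either. The rise was larger in leaf than in root by 6.32 (interaction adjusted p = 2.28e-12, limma) and than in stem by 5.47 (adjusted p = 1.05e-09, limma). Responses at 180 min differed between leaf and root for 34.5% of all genes (16.1% with a higher change in leaf, 18.3% lower) and between leaf and stem for 10.9% (5.31% higher, 5.54% lower). Of the FPKM of both copies together, Gohir.A13G152200 made up 54.8 ± 6.31% in leaf at 180 min (47.7 to 59.9% in single libraries).

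The hydroxylase copy Gohir.D02G209900 (chromosome D02, 69880996 to 69885140), also described as abscisic acid 8'-hydroxylase 4, rose in leaf and stem. Leaf libraries had 13.5, 7.68 and 5.64 FPKM at 180 min, against 0.0574, 0.449 and 0.215 FPKM at 0 min (log2 change 2.94, SE 0.41, adjusted p = 0.000293, limma). Leaf also passed at 30 min (1.80, adjusted p = 0.0096) and 60 min (1.70, adjusted p = 0.0361), but the call at 60 min was lost when any 1 of the 6 libraries was left out (adjusted p = 0.0526 to 0.121, limma). Stem libraries had 6.37, 15.2 and 2.38 FPKM at 180 min, against 0.0587, 0.544 and 0.198 FPKM at 0 min (2.56, adjusted p = 0.00114, limma). Root means stayed between 0.0755 and 0.217 FPKM and the gene was too low to be tested there. The share of Gohir.A03G189000 in the FPKM of the pair was 72.8 ± 1.83% in leaf and 61.1 ± 3.70% in stem at 180 min, and 45.7 ± 13.4% in leaf at 30 min.

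The epoxidase copy Gohir.A11G192600 (chromosome A11, 32144504 to 32149029, described by its FAD-binding and FHA domains) fell in root and stem. Root libraries had 1.15, 1.02 and 0.781 FPKM at 180 min, against 4.09, 4.29 and 4.04 FPKM at 0 min (log2 change -1.38, SE 0.17, adjusted p = 1.84e-05, limma). It had fallen by 1.08 at 30 min and 1.04 at 60 min in root; the fall of 0.56 at 10 min (adjusted p = 0.0462, limma) was lost without any 1 of the libraries concerned (adjusted p = 0.0783 to 0.135, limma). In stem it fell by 1.04 at 60 min (adjusted p = 0.00713, limma) and by 0.71 at 180 min (adjusted p = 0.0331, limma), the 180 min fall not passing without 0 min replicate 2 or 3 or 180 min replicate 1 or 2 (adjusted p = 0.0631, 0.119, 0.0972 and 0.143, limma). In leaf it was 13.6 ± 0.734 FPKM at 180 min and 18.4 ± 0.858 FPKM at 0 min, which did not pass (adjusted p = 0.148, limma). Gohir.D11G199300 made up 32.8 ± 4.80% of the pair in root at 180 min, against 59.8 ± 0.592% at 0 min, and the 2 sets of shares did not overlap.

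**Figure D2:**
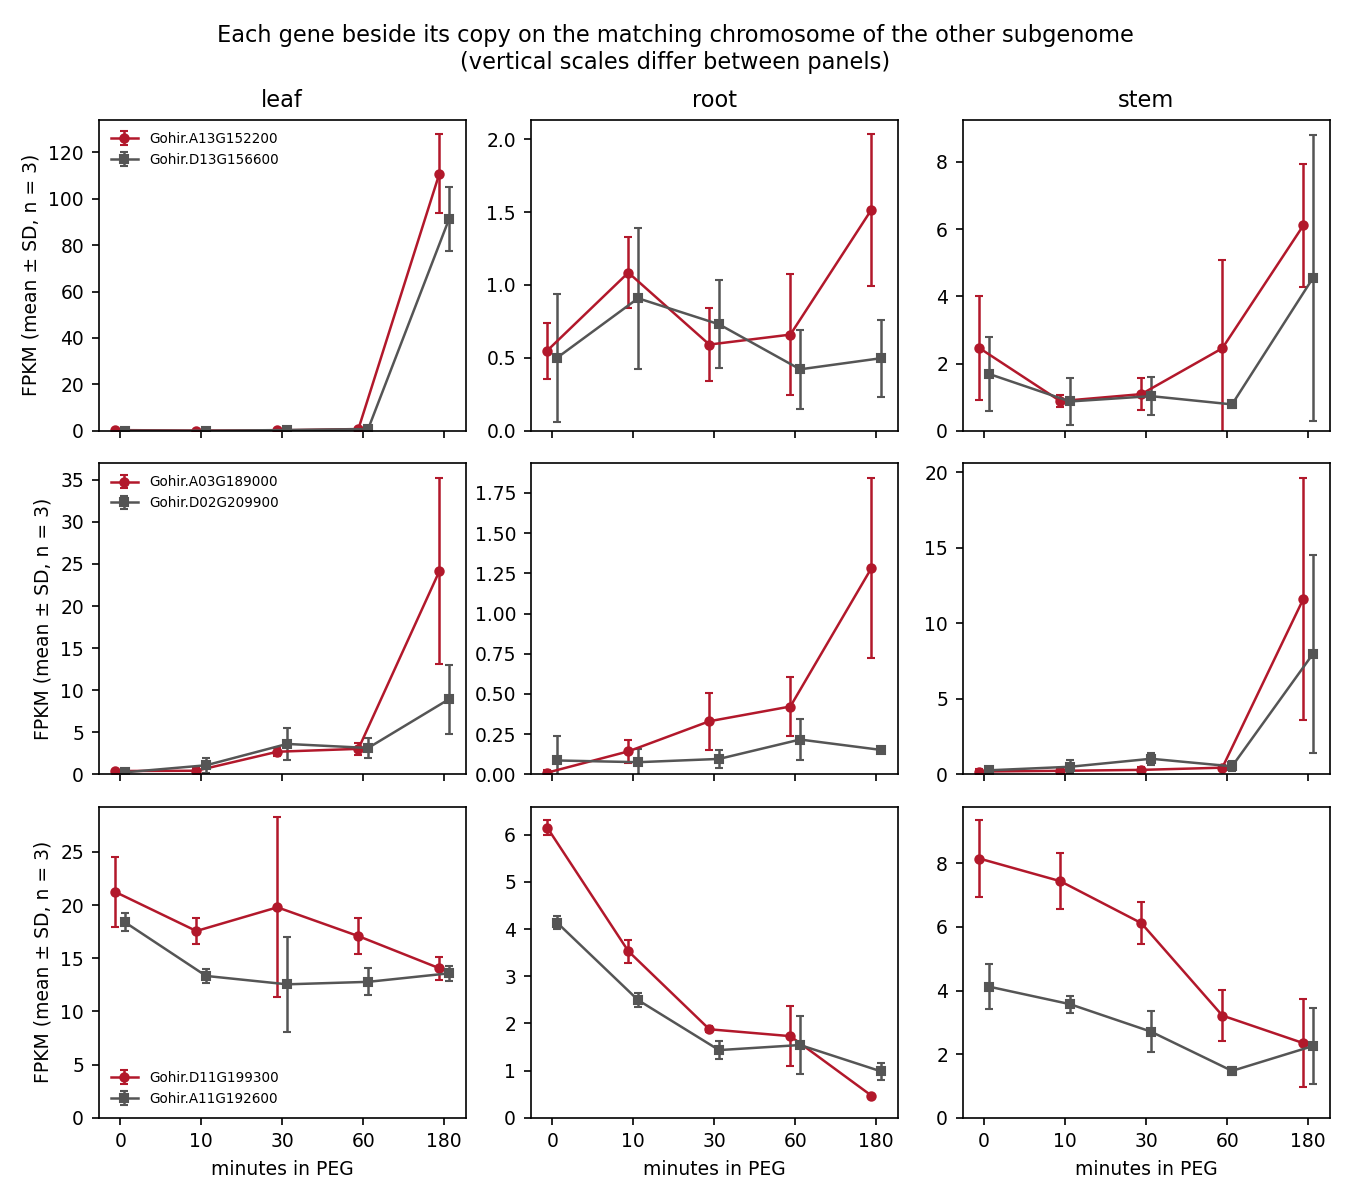
Mean level in FPKM (± SD, n = 3) of each of the 3 genes (red) and its copy on the matching chromosome of the other subgenome (grey) at 0 to 180 min in PEG, in leaf, root and stem; vertical scales differ. Both dioxygenase copies climb together in leaf at 180 min, to 111 and 91.3 FPKM, and the D11 epoxidase copy drops below the A11 copy in root at 180 min.

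The genes whose 15 group means followed each of the 3 most closely were ranked by Pearson's r of log2(FPKM + 1) among 37625 candidates, as a description over 15 means that share libraries within a tissue. For Gohir.A13G152200 the closest was its copy Gohir.D13G156600 (r = 0.99), followed by the B-box zinc finger gene Gohir.D02G186700 (r = 0.96). For Gohir.A03G189000 the closest was Gohir.D13G017400, described as probable aquaporin PIP-type 7a (r = 0.94), then its copy Gohir.D02G209900 (r = 0.93). Next came Gohir.D09G052700, with a trypsin and protease inhibitor domain (r = 0.93), and Gohir.D07G114400, a late embryogenesis abundant protein (r = 0.93). For Gohir.D11G199300 the closest were Gohir.A11G255100, with a flavin amine oxidoreductase domain (r = 0.99), and Gohir.A08G197500, with a GcpE domain (r = 0.98). Its copy Gohir.A11G192600 had r = 0.95 and ranked 157.

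The other genes of the pathway were taken by words in their descriptions: 34 dioxygenase-domain genes, 5 hydroxylases, 1 epoxidase, 22 genes of carotenoid supply and 14 of the late steps, 76 in all without the 3 genes. Before treatment, 38 of 59 tested pathway genes differed between leaf and root, 15 higher and 23 lower in leaf, where 47.2% of all genes differed, 23.7% higher and 23.5% lower (limma adjusted p under 0.05). Between leaf and stem 26 differed, 18 higher and 8 lower in leaf (30.7% of all genes, 17.7% higher and 12.9% lower). Between stem and root 41 differed, 15 higher and 26 lower in stem (42% of all genes, 20.9% higher and 21.1% lower). Carotenoid supply genes, whose products are also photosynthetic pigments, were higher in leaf than in root in 10 of 19 and lower in 2. Late-step genes were higher in leaf than in root in 2 of 12 and lower in 7.

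In leaf at 180 min, 11 of 37 tested pathway genes rose and 0 fell, while 9.89% of all genes rose and 9.61% fell (19.5% in either direction). The 11 were 5 dioxygenase-domain genes, the hydroxylase copy, 4 supply genes and 1 late-step gene, with a median log2 change over the 37 of 0.17 beside -0.045 over all genes. Of the 5, Gohir.D13G156600 and Gohir.D08G253900 passed the filter on low values only through the 180 min libraries. Their rise was thus built into their being tested, and the count of 11 includes them. The pair Gohir.A01G041300 and Gohir.D01G028600, which carry the dioxygenase domain, had 181 and 78.4 FPKM, the first the highest mean of the pathway genes in leaf at 180 min: Gohir.A01G041300 rose to 181 ± 22.1 FPKM, against 23.9 ± 17.7 FPKM at 0 min (3.09, adjusted p = 0.00864, limma), and Gohir.D01G028600 to 78.4 ± 13.7, against 14.7 ± 13.1 FPKM (2.64, adjusted p = 0.0125, limma). Gohir.D08G253900, the gene carrying the name of the Arabidopsis 9-cis-epoxycarotenoid dioxygenase NCED3 and chosen after its values were seen, was far lower, at 1.3 ± 0.154 FPKM, against 0.156 ± 0.144 FPKM (1.00, adjusted p = 0.00126, limma). The squalene/phytoene synthase-domain pair, whose domain covers the first carotenoid step and a sterol step, rose by 1.13 at Gohir.A09G008400 (adjusted p = 0.00819, limma) and by 0.85 at Gohir.D09G007800 (adjusted p = 0.0134, limma). Without leaf 0 min replicate 1 the count was 7, and the calls of Gohir.D01G028600 (adjusted p = 0.0528, limma) and Gohir.D09G007800 (adjusted p = 0.0514, limma) were lost.

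Earlier leaf samplings gave few calls. At 10 min 0 of 37 passed (1.51% of all genes did, 0.884% higher and 0.625% lower), with 5 at an unadjusted p under 0.05, by limma and by limma with voom weights alike, and 1 passed without 10 min replicate 2. At 30 min 1 rose, the hydroxylase copy, and 6 fell (8.33% and 9.5% of all genes, 17.8% in all), among them Gohir.D13G014400, described as xanthoxin dehydrogenase, which makes abscisic aldehyde (12.9 ± 0.524 FPKM, against 26.9 ± 2.25 FPKM at 0 min, -1.0, adjusted p = 0.00572, limma). The 30 min count was 4 without 0 min replicate 2 or 30 min replicate 3 and 3 without 30 min replicate 1. At 60 min 2 rose and 0 fell (2.04% and 1.9% of all genes, 3.94% in all), but without 0 min replicate 2 the count was 1 and without any other of the 6 libraries 0.

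In root, calls of lower pathway genes outnumbered calls of higher ones at each time. At 10, 30, 60 and 180 min, 0, 0, 4 and 12 of 47 rose and 12, 25, 23 and 23 fell, where 8.16%, 17.6%, 19.5% and 28.5% of all genes rose and 7.03%, 16.6%, 19.1% and 26.9% fell. In either direction 15.2%, 34.2%, 38.6% and 55.3% of all genes passed. Over the 4 times together 43 of 47 passed limma's F test, as did 66.8% of all root genes. Summed over the 6 hydroxylase genes, the level was 4.76 ± 0.939 FPKM in root at 180 min, against 45.1 ± 25.2 FPKM at 0 min. Most of that sum was Gohir.A12G062800, described as abscisic acid 8'-hydroxylase 3, with 0.0958, 0.150 and 0.288 FPKM at 180 min, against 16.2, 51.1 and 64.6 FPKM at 0 min (-5.05, SE 0.58, adjusted p = 7.5e-06, limma). It had fallen by 3.63 at 30 min (adjusted p = 0.000342, limma) and by 2.72 at 60 min (adjusted p = 0.00227, limma), and its leaf and stem means did not exceed 0.0641 FPKM. Gohir.D02G070400, also described as 8'-hydroxylase 3, rose in root by 1.54 at 60 min (adjusted p = 0.000345, limma) and 1.06 at 180 min (2.42 ± 1.32 FPKM, against 0.565 ± 0.145 FPKM, adjusted p = 0.00277, limma). It passed the filter on low values in root only through treated libraries, so a rise was built into its being tested. The counts of 4 and 12 root genes that rose include it.

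**Figure D3:**
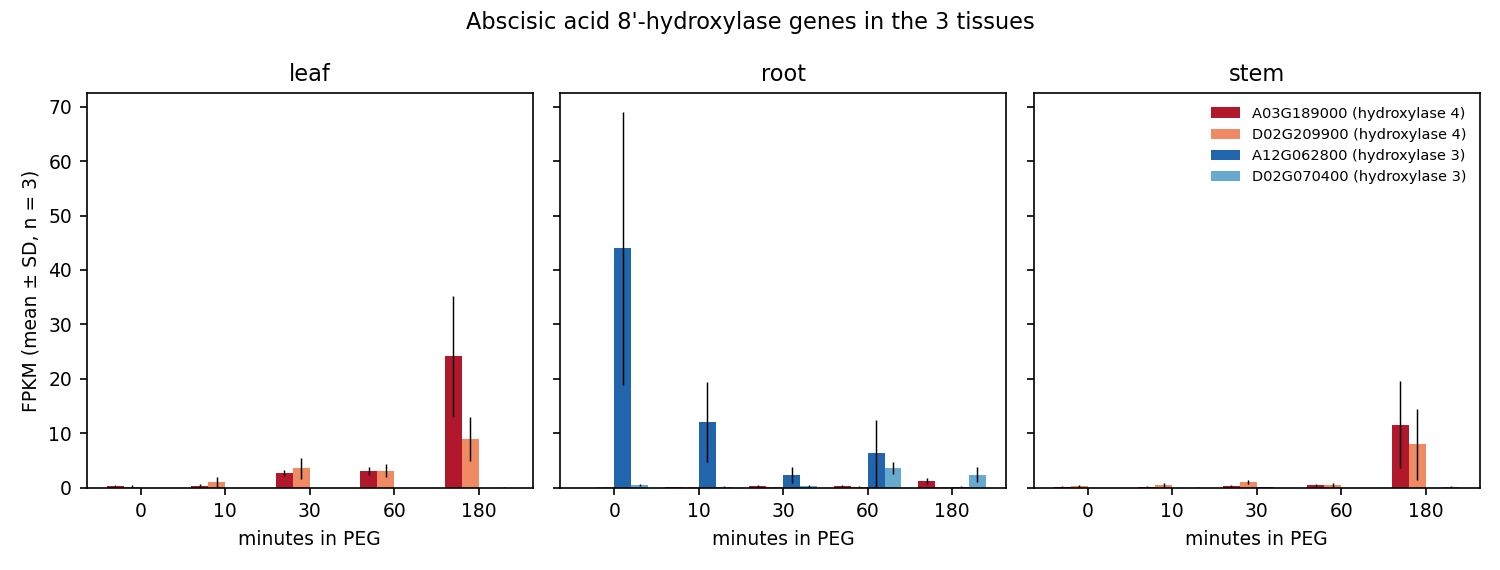
Mean level in FPKM (± SD, n = 3; lower bars stop at 0) of 4 abscisic acid 8'-hydroxylase genes at 0 to 180 min in PEG, in leaf, root and stem. The bars for Gohir.A12G062800 stand in root and are tallest at 0 min, 44.0 FPKM, while those of Gohir.A03G189000 and Gohir.D02G209900 stand in leaf and stem and are tallest at 180 min, 24.2 and 8.94 FPKM in leaf.

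Of 12 late-step genes tested in root, 4, 10, 9 and 9 fell at 10, 30, 60 and 180 min, and 1 rose at 180 min. The aldehyde oxidase-domain genes Gohir.D05G079500 and Gohir.A05G076700, of the family that carries out the last step, fell by 3.28 (2.21 ± 1.02 FPKM, against 29.4 ± 4.73 FPKM at 0 min, adjusted p = 2.73e-08, limma) and by 2.25 (2.95 ± 0.463 FPKM, against 17.7 ± 0.394 FPKM, adjusted p = 1.6e-07, limma). Gohir.D09G039300, described as molybdenum cofactor sulfurase, which activates aldehyde oxidases, fell to 1.33 ± 0.535 FPKM, against 12.6 ± 3.01 FPKM at 0 min (-2.55, adjusted p = 8.45e-07, limma). Dioxygenase-domain genes fell in 10 of 17 and rose in 3 at 180 min: Gohir.D01G028600 was 0.0526 ± 0.0459 FPKM at 180 min and 10.3 ± 6.74 FPKM at 0 min (-3.27, adjusted p = 1.15e-06, limma), the reverse of its direction in leaf. Gohir.D10G042700 rose to 22.5 ± 10.5 FPKM, against 7.55 ± 2.15 FPKM (1.37, adjusted p = 0.00431, limma), after a fall of 1.47 at 30 min (adjusted p = 0.00511, limma).

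Of 15 carotenoid supply genes tested in root, 0, 0, 2 and 7 rose at 10, 30, 60 and 180 min and 2 fell at each time, beside 28.5% of all root genes rising and 26.9% falling at 180 min. Gohir.A05G031300, described as lycopene epsilon cyclase, which leads carotenoids toward lutein, had 3.90 ± 1.54 FPKM at 180 min and 0.104 ± 0.133 FPKM at 0 min (2.11, adjusted p = 1.7e-06, limma). The lycopene cyclase-domain gene on the matching chromosome, Gohir.D05G032700, had 4.09 ± 2.15 FPKM at 180 min and 0.119 ± 0.0757 FPKM at 0 min (2.1, adjusted p = 1.36e-05, limma). Both cyclase genes, counted among the 7 that rose at 180 min, passed the filter in root only through the 180 min libraries. Their rise was thus built into their being tested. Gohir.A10G132000, described as phytoene desaturase of the early carotenoid steps, fell to 2.34 ± 0.241 FPKM, against 6.96 ± 0.685 FPKM (-1.25, adjusted p = 1.37e-05, limma). Scaled to each library's own total, the median root gene itself shifted by -0.44 at 180 min, -0.18 at 30 min and -0.15 at 60 min, and in leaf at 30 min by -0.11. Without root library y at 0 min, 3 genes passed at 10 min and 16 at 30 min; at 10 min the count was 7 without library x, 4 without replicate 1 of that time and 6 without replicate 2 or 3.

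In stem 13 of 41 pathway genes rose and 6 fell at 180 min, while 15% of all genes rose and 14.3% fell (29.3% in either direction). The 13 include Gohir.D02G209900 and Gohir.D08G253900, which passed the filter only through the 180 min libraries, so their rise was built into their being tested. The supply genes rose in 6 of 16, among them Gohir.A09G008400 (23.4 ± 8.71 FPKM, against 5.46 ± 3.08 FPKM at 0 min, 2.01, adjusted p = 0.00504, limma) and Gohir.D09G007800 (11.9 ± 0.923 FPKM, against 3.83 ± 1.54 FPKM, 1.47, adjusted p = 0.000966, limma). Gohir.D08G253900 rose to 3.60 ± 1.29 FPKM, against 0.515 ± 0.385 FPKM (1.59, adjusted p = 0.00686, limma), while Gohir.A01G041300 fell to 0.881 ± 0.544 FPKM, against 9.49 ± 5.49 FPKM (-2.38, adjusted p = 0.0017, limma). Without stem 0 min replicate 3 or 180 min replicate 1 the count of 19 was 11.

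Earlier in stem, 0 of 41 passed at 10 min (0.0021% of all genes did, all of them higher), with 5 at an unadjusted p under 0.05 in limma and 7 with voom weights. At 30 min 2 rose and 0 fell (1.61% and 0.759% of all genes, 2.37% in all), with a count of 1 without 0 min replicate 1 and 0 without 0 min replicate 3 or any 1 library of 30 min. At 60 min 2 rose and 10 fell (13.3% and 11.6% of all genes, 24.9% in all), and the count of 12 was 6 without 0 min replicate 3 or 60 min replicate 3 and 7 without 60 min replicate 2.

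**Figure D4:**
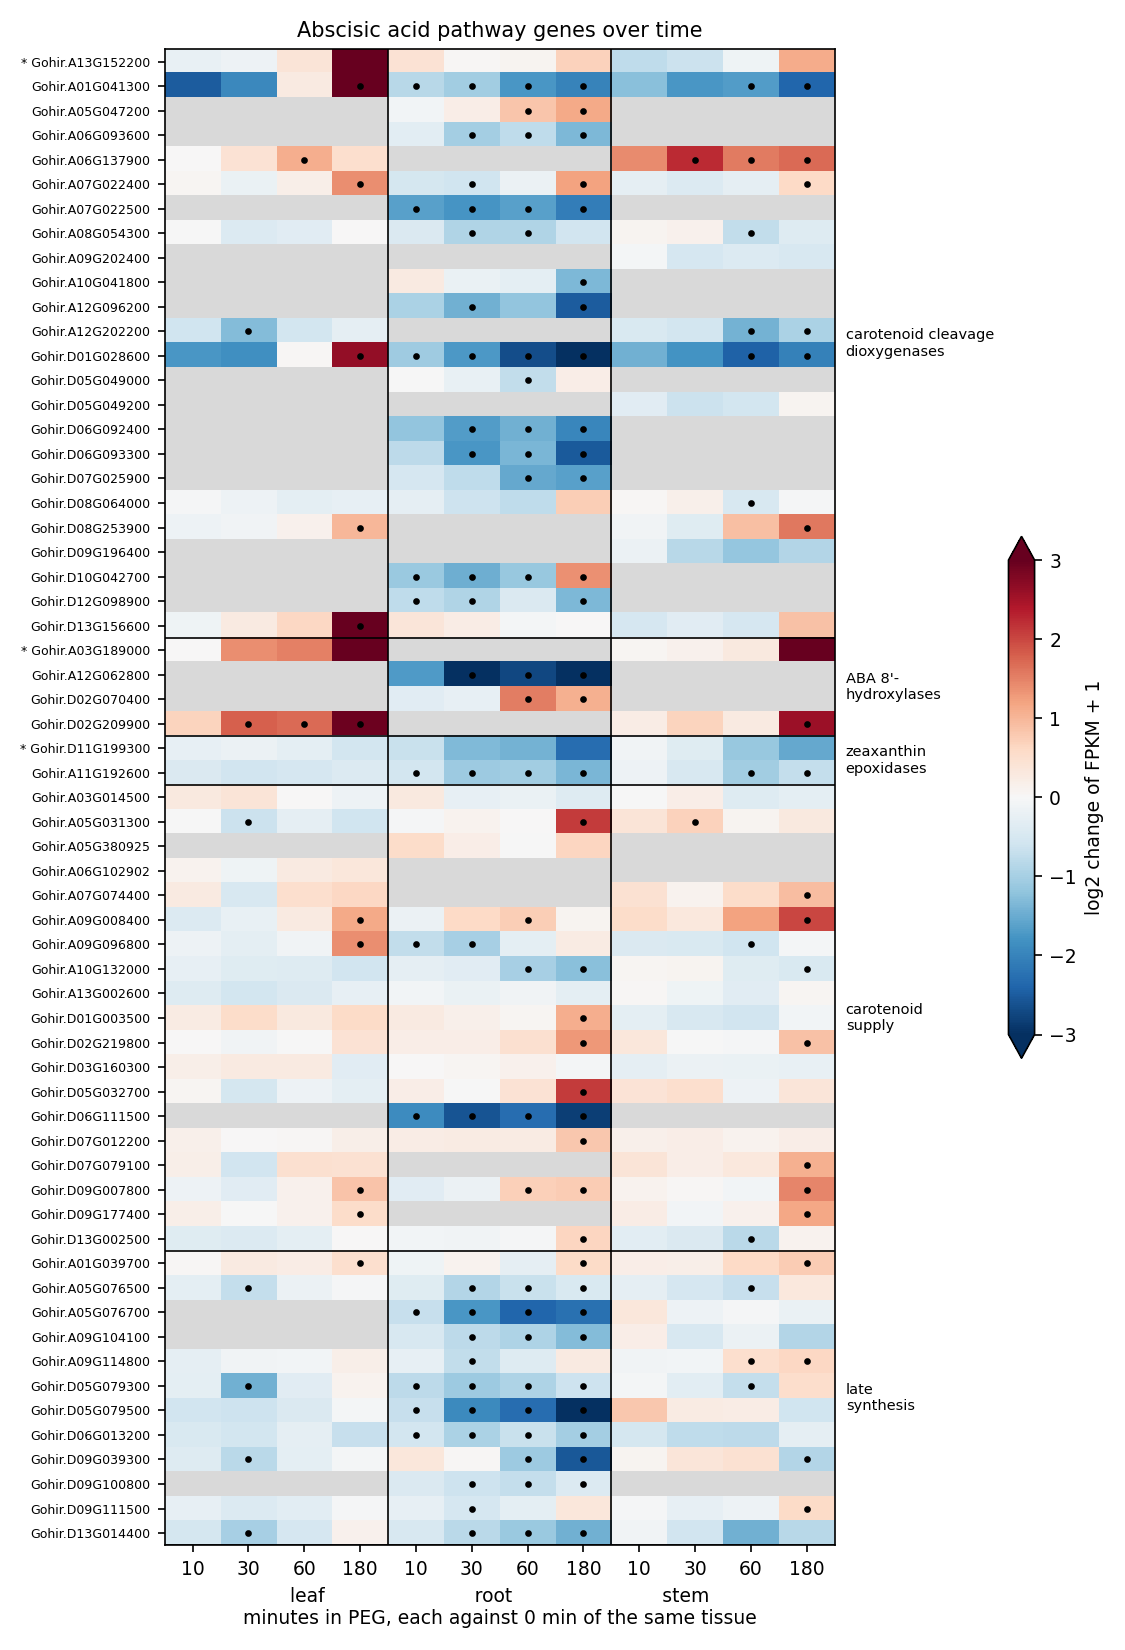
Change in log2(FPKM + 1) against 0 min of the same tissue for each pathway gene tested in at least 1 tissue (rows, grouped by step) at 10, 30, 60 and 180 min (columns); colours stop at 3 in either direction, grey cells were too low to test, black dots mark limma adjusted p under 0.05, and starred genes, which carry no dots, are the 3 described. Blue cells fill much of root, where 23 of 47 genes fell and 12 rose at 180 min (26.9% and 28.5% of all genes). Red cells mark leaf at 180 min, where 11 of 37 rose and 0 fell (9.89% and 9.61% of all genes).

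Downstream of the hormone, receptors bind it, SnRK2 kinases pass the signal on, and ABI5-like transcription factors switch on response genes. Of 19 such genes tested in leaf at 180 min, 8 rose and 0 fell, where 9.89% of all genes rose and 9.61% fell: all 7 tested factors and 1 kinase. Gohir.A12G023700, described as ABSCISIC ACID-INSENSITIVE 5-like protein 6, had 94.2, 86.5 and 75.2 FPKM at 180 min, against 16.9, 12.2 and 25.4 FPKM at 0 min (2.22, adjusted p = 7.01e-05, limma). Before that it had fallen in leaf, at 10 min (-1.20, adjusted p = 0.0389, limma) and at 30 min (-1.34, adjusted p = 0.00411, limma). The kinase gene Gohir.D08G182500, described as SAPK3 of rice, had 43.1, 33.9 and 30.5 FPKM, against 2.02, 1.41 and 2.77 FPKM (3.60, adjusted p = 6.64e-05, limma). In root 7 of 18 rose and 6 fell at 180 min (28.5% and 26.9% of all genes), and in stem 4 of 18 rose and 1 fell (15% and 14.3% of all genes). At 30 min the factors ran the other way: 4 of 7 fell in leaf and all 7 tested in root, and 0 rose in either. Of all signalling genes, 2 of 19 rose and 5 fell in leaf at 30 min (8.33% and 9.5% of all genes). Root at 30 min had 1 of 18 higher and 8 lower (17.6% and 16.6% of all genes), and stem 0 of 18 (2.37% of all genes). Gohir.D13G039600, a further 5-like protein 6 gene, rose in leaf (31.5 ± 2.75 FPKM, against 8.48 ± 0.568 FPKM at 0 min, 1.78, adjusted p = 7.66e-06, limma) and fell in root (5.44 ± 0.0417 FPKM, against 12 ± 1.19 FPKM, -1.01, adjusted p = 1.09e-05, limma). The receptor gene Gohir.A09G167500, described as PYL4, was 242 ± 79.5 FPKM in root at 180 min and 109 ± 23.9 FPKM at 0 min (1.11, adjusted p = 0.00445, limma), a call not held with own-total scaling (adjusted p = 0.118, limma) or quantile scaling (adjusted p = 0.381, limma).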

How the data were processed

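RNA-seq of 45 libraries gave 1 table of 75376 genes. Per the submitters' processing notes, HISAT2 2.0.5 and featureCounts 1.5.0-p3 were used; the genome build, strand setting and treatment of reads matching both subgenomes are not given in the sources used here. The deposited values are FPKM, per the file headers. Multiplied by the counted length, 100% of values gave whole reads within 0.01, and the per-library factors were equal to median-of-ratios size factors over 42188 genes, so a gene's change is relative to that median gene and not to total RNA. Totals of recovered reads were 16373617 to 21774520. Columns were matched to samples by name; 2 root columns at 0 min share a name and are called libraries x and y, with no replicate number. No library was identical to another.

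Genes reaching 1 FPKM in at least 3 libraries of a tissue were tested with limma 3.58.1 (R 4.3.3) on log2(FPKM + 1), 5 times per tissue, with trended and robust variance moderation, each time against 0 min, and Benjamini-Hochberg adjustment over all genes kept; a call is an adjusted p under 0.05. A fold on this scale understates the change of low genes. Tissues were compared in a fit of all 45 libraries. In simulated data, 65 to 67 tested genes per tissue were given each log2 change at 180 min and all other genes none. The fit recovered 0% of changes of 0.5 in each tissue. It recovered 13.6%, 10.8% and 7.46% of changes of 1 in leaf, root and stem, and 78.5%, 57.6% and 63.6% of changes of 2. In the real fits 19.5%, 55.3% and 29.3% of all genes passed at 180 min, so the adjustment was less strict there. The simulated rates are therefore not the recovery rates of the real tests. A gene that did not pass may still have changed. Alternatives tried were no filter, a 5 FPKM filter, a pseudocount of 0.1, own-total and quantile scaling, a replicate block, limma with voom weights on the recovered reads, and leaving out each library.

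The members and the gene lists were chosen with earlier results of these data known. The 3 genes carry no test. Other genes are named where they were the copies, among the 3 genes of their list with the smallest limma F test p in a tissue, among the 5 most alike in group means (of genes reaching 5 FPKM), or, as said beside it, chosen after their values were seen. A list of hormone-conjugating genes matched no description.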

Additional observations from a re-analysis of the deposited data

Results flagged for a closer look

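The responses at 180 min of the tested genes named in the text were compared between tissues, as the difference between tissues of the log2(FPKM + 1) change against 0 min, in a limma fit of all 45 libraries with Benjamini-Hochberg adjustment over all genes. Differences passed for 34.5% of all genes between leaf and root, 10.9% between leaf and stem and 28.1% between stem and root (13.1% with a higher change in stem, 15% lower), so a passing difference was common. Values for each gene that passed are given here, with no explanation.

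Of 23 dioxygenase-domain genes tested, 14 differed between leaf and root, 4 between leaf and stem and 11 between stem and root; the named ones were as follows. Gohir.D13G156600 changed by 6.34 in leaf, against 0.02 in root (difference 6.32, adjusted p = 2.28e-12, limma), and by 6.34 in leaf, against 0.88 in stem (difference 5.47, adjusted p = 1.05e-09, limma). Gohir.A01G041300 changed by 3.09 in leaf, against -1.99 in root (difference 5.08, adjusted p = 2.48e-06, limma), and by 3.09 in leaf, against -2.38 in stem (difference 5.47, adjusted p = 7.57e-06, limma). Gohir.D01G028600 changed by 2.64 in leaf, against -3.27 in root (difference 5.92, adjusted p = 1.41e-06, limma), and by 2.64 in leaf, against -2.02 in stem (difference 4.67, adjusted p = 0.000336, limma). Gohir.D08G253900 changed by 1.00 in leaf, against -0.052 in root (difference 1.05, adjusted p = 0.0132, limma), and by 1.59 in stem, against -0.052 in root (difference 1.65, adjusted p = 0.000264, limma). This gene passed the filter in leaf and stem only through libraries of the last sampling, and did not pass it in root. A higher change in leaf or stem was thus built into its being tested, and its p-values are given as values only.

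Among the 8'-hydroxylase genes, Gohir.A12G062800 and Gohir.D02G070400 were at or near 0 FPKM in leaf and stem, and Gohir.D02G209900 in root, which limits what these p-values show. Gohir.D08G253900 in root and Gohir.A05G076700 in leaf were likewise too low to be tested within those tissues. Gohir.D02G209900 changed by 2.94 in leaf, against 0.093 in root (difference 2.84, adjusted p = 5.53e-05, limma), and by 2.56 in stem, against 0.093 in root (difference 2.47, adjusted p = 0.000454, limma). Gohir.D02G070400 changed by 0.062 in leaf, against 1.06 in root (difference -1.0, adjusted p = 0.000943, limma), and by 0.18 in stem, against 1.06 in root (difference -0.88, adjusted p = 0.00406, limma). Gohir.D02G070400 passed the filter in root only through treated libraries, so a rise in root was built into its being tested. Gohir.A12G062800 changed by -0.029 in leaf, against -5.05 in root (difference 5.02, adjusted p = 3.25e-09, limma), and by 0.027 in stem, against -5.05 in root (difference 5.07, adjusted p = 3.78e-09, limma). With almost no transcript to lose in leaf or stem, this gene could not have fallen there. Its differences therefore restate the fall in root and do not show that leaf or stem responded otherwise.

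Of 19 supply genes tested, 9 differed between leaf and root, 2 between leaf and stem and 9 between stem and root; the epoxidase copy is given with them. Gohir.A11G192600 changed by -0.41 in leaf, against -1.38 in root (difference 0.97, adjusted p = 0.00567, limma). Gohir.A09G008400 changed by 2.01 in stem, against 0.071 in root (difference 1.94, adjusted p = 0.0028, limma). Gohir.A05G031300 changed by -0.60 in leaf, against 2.11 in root (difference -2.71, adjusted p = 3.55e-10, limma), and by -0.60 in leaf, against 0.30 in stem (difference -0.91, adjusted p = 0.0186, limma), and by 0.30 in stem, against 2.11 in root (difference -1.80, adjusted p = 1.62e-06, limma). Gohir.D05G032700 changed by -0.30 in leaf, against 2.1 in root (difference -2.40, adjusted p = 1.57e-06, limma), and by 0.36 in stem, against 2.1 in root (difference -1.74, adjusted p = 0.000245, limma). Gohir.A10G132000 changed by -0.58 in leaf, against -1.25 in root (difference 0.68, adjusted p = 0.0251, limma), and by -0.46 in stem, against -1.25 in root (difference 0.79, adjusted p = 0.0108, limma).

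Of 12 late-step genes tested, 7 differed between leaf and root, 1 between leaf and stem and 5 between stem and root. Gohir.D13G014400 changed by 0.13 in leaf, against -1.45 in root (difference 1.59, adjusted p = 0.0272, limma). Gohir.D05G079500 changed by -0.055 in leaf, against -3.28 in root (difference 3.22, adjusted p = 6.45e-09, limma), and by -0.59 in stem, against -3.28 in root (difference 2.68, adjusted p = 3.45e-07, limma). Gohir.A05G076700 changed by 0.0089 in leaf, against -2.25 in root (difference 2.25, adjusted p = 0.000196, limma), and by -0.19 in stem, against -2.25 in root (difference 2.05, adjusted p = 0.000798, limma). Gohir.D09G039300 changed by -0.057 in leaf, against -2.55 in root (difference 2.50, adjusted p = 3.37e-07, limma), and by -0.89 in stem, against -2.55 in root (difference 1.66, adjusted p = 0.000234, limma).

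Of 20 receptor, kinase and factor genes tested, 13 differed between leaf and root, 7 between leaf and stem and 5 between stem and root. Gohir.A09G167500 changed by -1.37 in leaf, against 1.11 in root (difference -2.47, adjusted p = 0.011, limma), and by -1.37 in leaf, against 1.00 in stem (difference -2.37, adjusted p = 0.0397, limma). Gohir.D08G182500 changed by 3.60 in leaf, against -0.28 in root (difference 3.88, adjusted p = 2.95e-05, limma), and by 3.60 in leaf, against 1.22 in stem (difference 2.38, adjusted p = 0.0193, limma). Gohir.A12G023700 changed by 2.22 in leaf, against 0.55 in root (difference 1.67, adjusted p = 0.00725, limma), and by 2.22 in leaf, against 0.51 in stem (difference 1.71, adjusted p = 0.0188, limma). Gohir.D13G039600 changed by 1.78 in leaf, against -1.01 in root (difference 2.79, adjusted p = 1.61e-13, limma), and by 1.78 in leaf, against -0.16 in stem (difference 1.93, adjusted p = 9.36e-09, limma), and by -0.16 in stem, against -1.01 in root (difference 0.85, adjusted p = 0.000729, limma).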

How the results depend on the processing

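Of 1803 alternatives run on 144 single-gene results, 1515 kept direction and side of the threshold, 288 kept direction but lost the threshold and 0 reversed. Of 153 run on counts and the 3 genes' changes, 119 stayed within 1.5 times the reported count or, for the 3 genes, within 1 SD between replicates. The cause of the moves below was not tested, except that a filter of 5 FPKM tests fewer genes. With that filter the pathway counts were 4 (leaf, 30 min), 1 (leaf, 60 min), 4, 10, 10 and 15 (root, 10 to 180 min), 7 (stem, 60 min) and 10 (stem, 180 min), and 23 for leaf against root and 23 for stem against root at 0 min. With no filter, 0 passed in leaf at 60 min and 0 in stem at 30 min. Own-total scaling gave 11 (leaf, 30 min) and 1 (stem, 30 min), quantile scaling 1 (stem, 30 min), a pseudocount of 0.1 gave 4 (root, 10 min), and voom weights 0 (leaf, 60 min) and 1 (stem, 30 min).

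The replicate numbers gave no regular likeness between libraries of a tissue. Of same-numbered pairs, 9 of 30 in leaf, 7 of 22 in root and 9 of 30 in stem correlated above 0.1 (r from -0.57 to 0.62). In stem all 3 pairs of 0 and 10 min did. Pairs of unlike number were not compared, so a pairing was not excluded. With the number as a replicate block, without the unnumbered root libraries x and y, counts were 0 (leaf, 60 min), 0, 4, 7 and 18 (root, 10 to 180 min), 0 (stem, 30 min) and 8 signalling genes (root, 180 min).

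At 180 min, a pseudocount of 0.1 gave Gohir.A13G152200 8.09 in leaf and 1.31 in root, Gohir.A03G189000 5.55 in leaf, 3.58 in root and 5.30 in stem, and Gohir.D11G199300 -3.45 in root; own-total scaling gave 0.36 for Gohir.A13G152200 and -2.46 for Gohir.D11G199300 in root, and quantile scaling -2.1 for Gohir.D11G199300.

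Leaving out single libraries gave 0 to 1, 3 to 9, 0 to 1 and 7 to 9 pathway genes in leaf at 10 to 180 min, 3 to 9, 16 to 24, 20 to 27 and 30 to 33 in root, and 0 to 0, 0 to 2, 6 to 10 and 11 to 17 in stem. At 0 min it gave 36 to 39 (leaf against root), 19 to 25 (leaf against stem) and 39 to 43 (stem against root), and for signalling at 180 min 8 to 8 (leaf), 12 to 14 (root) and 4 to 6 (stem). Gohir.A13G152200 ranged 6.30 to 6.52 in leaf, 0.52 to 0.78 in root and 0.70 to 1.42 in stem, Gohir.A03G189000 3.76 to 4.41, 0.96 to 1.27 and 2.72 to 3.72, and Gohir.D11G199300 -0.66 to -0.45, -2.30 to -2.27 and -1.84 to -1.24. Depth limits Gohir.A03G189000 in root most, where 0 min held 1 read.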

Other observations

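Both 8'-hydroxylase 4 genes have a gene described as ABSCISIC ACID-INSENSITIVE 5-like protein 7, a transcription factor of the hormone's response, close by. Gohir.A03G188600 (chromosome A03, 111135474 to 111138529) lies 84129 bases from Gohir.A03G189000 with 3 genes between, and Gohir.D02G209300 (chromosome D02, 69761928 to 69767542) lies 113453 bases from Gohir.D02G209900, also with 3 between. At 180 min both factor genes rose in all 3 tissues, root included. Gohir.A03G188600 was 36.3 ± 6.15 FPKM in leaf at 180 min and 9.96 ± 1.05 FPKM at 0 min (SD, n = 3 each; 1.76, adjusted p = 4.22e-05, limma). In root Gohir.A03G188600 was 20.2 ± 5.04 FPKM at 180 min and 6.24 ± 0.923 FPKM at 0 min (1.53, adjusted p = 6.61e-05, limma), and in stem 23.9 ± 8.53 FPKM at 180 min and 7.79 ± 1.85 FPKM at 0 min (1.46, adjusted p = 0.00132, limma). Gohir.D02G209300 changed by 1.59 in leaf (adjusted p = 7.08e-05, limma), 1.79 in root (adjusted p = 0.000146, limma) and 1.51 in stem (adjusted p = 0.00468, limma). At 30 min the direction was the reverse in root, with called changes of -0.76 at Gohir.A03G188600 and -1.21 at Gohir.D02G209300. In leaf at 30 min Gohir.D02G209300 changed by -0.60 (adjusted p = 0.0413, limma), while its neighbour Gohir.D02G209900 rose by 1.80.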
